A study of Rattus norvegicus with 62 samples.

Results

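Extracellular matrix and hepatic stellate cell genes were followed in rat livers taken from a 2-stage carcinogenesis experiment. The gene set held 40 genes chosen by name, with earlier results of these data known. Of these, 39 had a probe set annotated to that gene symbol alone, out of 14217 such genes on the array. Thbs1 had none. Where a gene had several such probe sets, the brightest on average over all 62 arrays stood for it. Of the 40 genes, 38 passed the minimum signal for testing at 5w and over both weeks and 37 at 10w. Postn, which codes for periostin, stayed below that minimum on every array, and Lum failed it at 10w.

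Hepatic stellate cells lie between hepatocytes and the sinusoidal endothelium and store vitamin A in the resting state. After injury they can turn into myofibroblast-like cells that secrete fibrillar collagens and contract. The matrix they leave behind is shaped by metalloproteinases, by the tissue inhibitors of metalloproteinases (TIMPs), and by enzymes that fold, hydroxylate and cross-link collagen. Scarring of this kind accompanies many forms of chronic liver injury and of liver tumour formation.

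Male Crj:CD(SD)IGS rats had received diethylnitrosamine at 3 mg/kg (DEN3/PB) or 30 mg/kg (DEN30/PB), thioacetamide at 45 mg/kg (TAA/PB), methapyrilene at 100 mg/kg (MP/PB), acetaminophen at 1000 mg/kg (APAP/PB) or the methylcellulose vehicle (MC/PB and MC/water). Dosing with these initiators took 1 or 2 weeks and was followed by 2 weeks without treatment. All groups but MC/water then drank 500 ppm phenobarbital, a promoter of liver tumours, for 6 weeks, while MC/water animals drank plain water. Each animal gave liver at partial hepatectomy, 1 week into promotion (5w), and again at its terminal sampling (10w), so that the 10w tissue had regrown after surgery. DEN3/PB, TAA/PB and MP/PB had 5 animals each and DEN30/PB, APAP/PB, MC/PB and MC/water had 4. The labels give neither the animals' ages nor which initiator ran for which of the dosing times. All samples are whole liver, in which fewer stellate cells and less RNA per cell cannot be told apart.

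Values are MAS5 signals, the summary that Affymetrix software makes of the probes of a probe set, and differences are given on the log2(signal + 25) scale. The median signal of an array lay between 99.3 and 126, and between 49.9% and 54.8% of probe sets reached a signal of 100. Summed hepatocyte markers, of which 7 of 8 had a probe set, ranged from 227600 to 381600. The stellate markers Lrat, Reln and Pdgfra were at 441 or more on every array. Other stellate markers were dimmer, with lowest signals of 112 (Cygb), 91.65 (Acta2), 76.75 (Pdgfrb) and 48.54 (Des). Des reached a signal of 100 on 36 of 62 arrays. The arrays fell into sets of 30 and 32 along the main component of the differences within groups, which carried 11.8% of that variation. Every group had 2 or 3 arrays in each set, and all 31 animals had both of their arrays in the same set. On the array of replicate 4 of 5w MC/PB, 34 of 38 tested genes of the set lay below their group mean (mean deviation -0.29), and on replicate 3 of 10w DEN30/PB 31 of 38 did (mean deviation -0.35). Differences that move by over 1.5 times or turn their direction without one of these arrays are given both ways where they are printed. These arrays were picked for low values of the same genes, so differences and p-values without them are descriptions only.

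**Figure D1:**
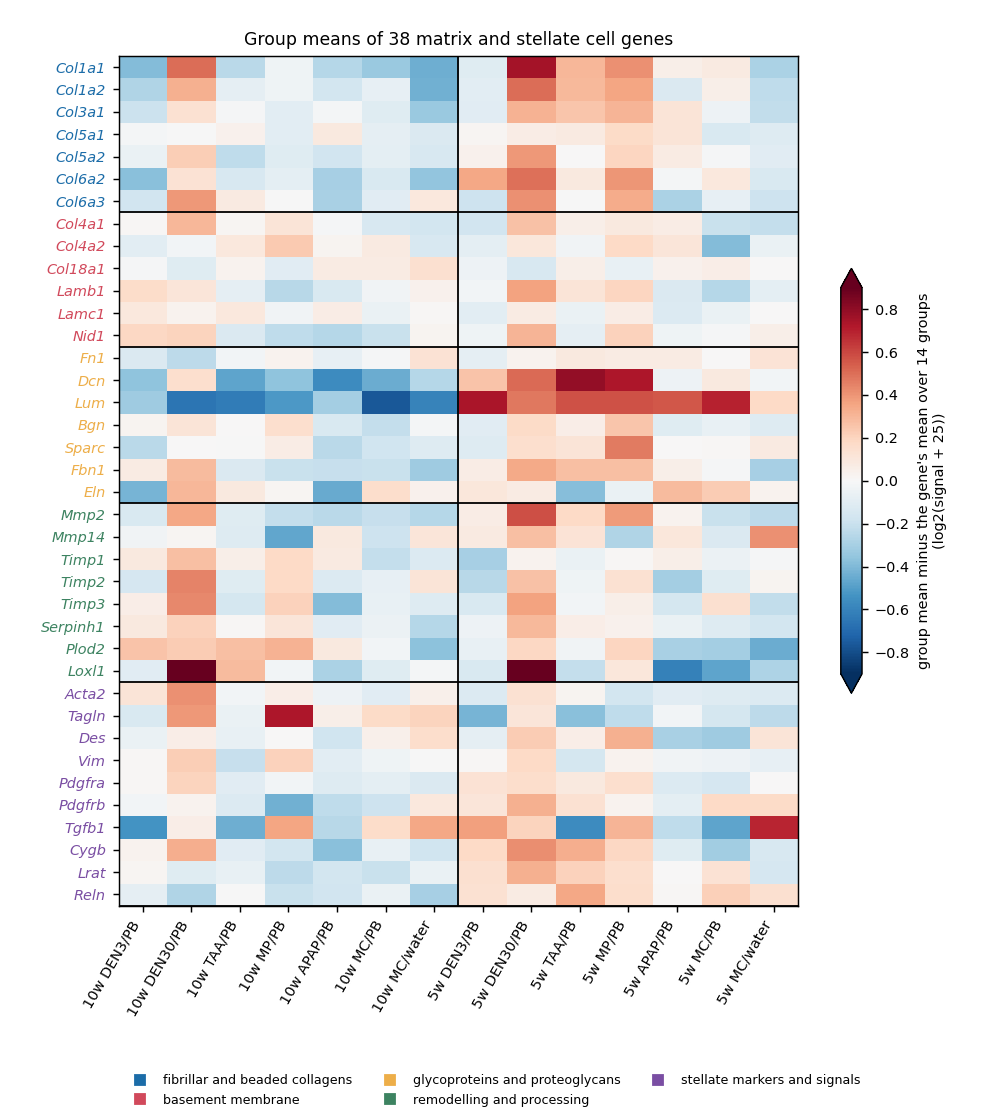
Group means of the 38 tested genes, each minus the gene's own mean over the 14 groups, on the log2(signal + 25) scale (colour; values beyond 0.9 take the end colours). Rows are genes grouped by role and columns are groups, 10w on the left. The 5w DEN30/PB column is warm for most collagens and enzymes, and Dcn and Lum are cool in most 10w columns.

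The fibrillar and beaded collagens (Col1a1, Col1a2, Col3a1, Col5a1, Col5a2, Col6a2 and Col6a3) all had their highest group mean at 5w, Col5a1 in MP/PB and the other 6 in DEN30/PB livers. Col1a1 and Col1a2 code for the chains of type I collagen, the main collagen of scar tissue, and Col3a1 for the chain of type III collagen. The 5w Col1a1 signals were 688, 637, 711 and 703 in DEN30/PB livers, against 552, 499, 370 and 305 in MC/PB livers. No DEN30/PB liver overlapped MC/PB, and the difference of 0.67 ± 0.25 (SE) did not pass the test (limma, adjusted p = 0.576). At 10w the Col1a1 signals were 442, 715, 334.5 and 989 in DEN30/PB livers, against 221, 355, 355 and 329 in MC/PB livers. Replicate 3 of DEN30/PB lay within the MC/PB range and the other animals above it. The difference was 0.83 ± 0.23 (adjusted p = 0.504), and 1.07 without replicate 3. That array was left out for low values of these same genes, so the larger difference is a description only. The other probe set of Col1a1 gave differences of 0.69 at 5w and 0.72 at 10w.

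Col3a1 signals at 5w were 7973, 9369, 7218 and 7947 in DEN30/PB livers, against 6677, 8608, 5970 and 4637 in MC/PB livers. The groups overlapped through replicate 2 of MC/PB, and the difference was 0.36 ± 0.15 (adjusted p = 0.742), or 0.21 ± 0.15 without replicate 4 of MC/PB. Within groups and array sets the collagens varied together over the 62 arrays. The median Pearson r between pairs of the 7 fibrillar and beaded collagens was 0.53, with a range of 0.25 to 0.84, against a median of 0.22 over all 703 pairs of the 38 genes. The closest pair was Col1a2 and Col3a1 at 0.84, followed by Col1a2 with Col5a2 and Timp1 with Vim, both at 0.76. Arrays of one animal share that animal and array set, and these correlations are a description only.

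Promoters are printed for Col1a2, which followed Col3a1 most closely, and for Col4a1, whose gene starts head to head with Col4a2. They are RefSeq sequences of build GRCr8, 250 bases before to 50 after the annotated start, and 28 of the 40 genes had one. Col1a2 lies at chr4:33518307-33518606 on the plus strand and Col4a1 at chr16:84885347-84885646 on the plus strand. Capitals mark matches on either strand to the CCAAT box, to TATAAA and to GGGCGG. A match on the minus strand is shown as its reverse complement, so that a minus-strand CCAAT box appears as ATTGG.
Col1a2: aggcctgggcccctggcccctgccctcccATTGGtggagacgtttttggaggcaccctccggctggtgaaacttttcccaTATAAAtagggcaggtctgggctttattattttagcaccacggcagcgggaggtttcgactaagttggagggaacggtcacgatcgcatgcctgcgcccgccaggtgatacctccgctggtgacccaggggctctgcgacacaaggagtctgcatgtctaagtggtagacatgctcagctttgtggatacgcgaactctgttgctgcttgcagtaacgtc
Col4a1: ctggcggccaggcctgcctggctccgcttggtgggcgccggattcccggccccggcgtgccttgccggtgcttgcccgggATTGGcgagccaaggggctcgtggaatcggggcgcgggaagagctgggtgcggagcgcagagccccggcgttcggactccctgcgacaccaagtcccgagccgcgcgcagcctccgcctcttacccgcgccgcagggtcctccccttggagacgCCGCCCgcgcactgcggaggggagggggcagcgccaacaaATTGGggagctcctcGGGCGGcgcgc
The Col1a2 window held CCAAT on the minus strand at position -221 and TATAAA at -170, counted from the start. The Col4a1 window held CCAAT on the minus strand at -170 and 25. It held GGGCGG on the minus strand at -16 and on the plus strand at 40. The window of Col4a2, at chr16:84885471-84885770 on the minus strand, shared 176 bases with that of Col4a1, and the annotated starts lay 77 bases apart. CCAAT was present in 10 of the 28 promoters of the set (35.7%) and in 37.7% of all 27457 promoters, TATAAA in 3 (10.7%) and 14.3%, and GGGCGG in 17 (60.7%) and 34.9%. TGANTCA, searched on both strands and not marked, was present in 1 of the 28 (3.57%) and in 7.33% of all. These are matches of letters and not binding sites. The expression of Col4a1 and Col4a2 within groups and array sets correlated at 0.19.

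A gene of the set passed against MC/PB in 1 of the 10 comparisons of initiated groups, in 5w DEN30/PB livers. Cygb, which codes for the globin that marks stellate cells in rodents, rose 1.66-fold and was the only tested gene of the set to pass. Cygb signals were 277, 298, 260 and 286 in DEN30/PB livers, against 149, 180, 207 and 112 in MC/PB livers, with no overlap. The log2 difference was 0.73 ± 0.15 (95% confidence interval 0.44 to 1.03, adjusted p = 0.0356). Of all 10485 genes tested, 0.114% passed in this comparison. With the replicate number as a block the difference was the same and the adjusted p was 0.0583, so that the call was lost. Within array sets 1 and 2 the difference was 0.55 and 0.92, and it stayed called in 2 of 8 fits that left out 1 array, with values from 0.59 to 0.84. Leaving out replicate 2 of MC/PB gave 2 calls in the set, leaving out replicate 3 of MC/PB gave 1, and leaving out any other of the 8 arrays gave 0. At 10w Cygb signals were 254, 329, 191 and 293 in DEN30/PB livers, against 194, 215, 233 and 140 in MC/PB livers. These groups overlapped, and the difference was 0.40 ± 0.20 (adjusted p = 0.974).

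**Figure D2:**
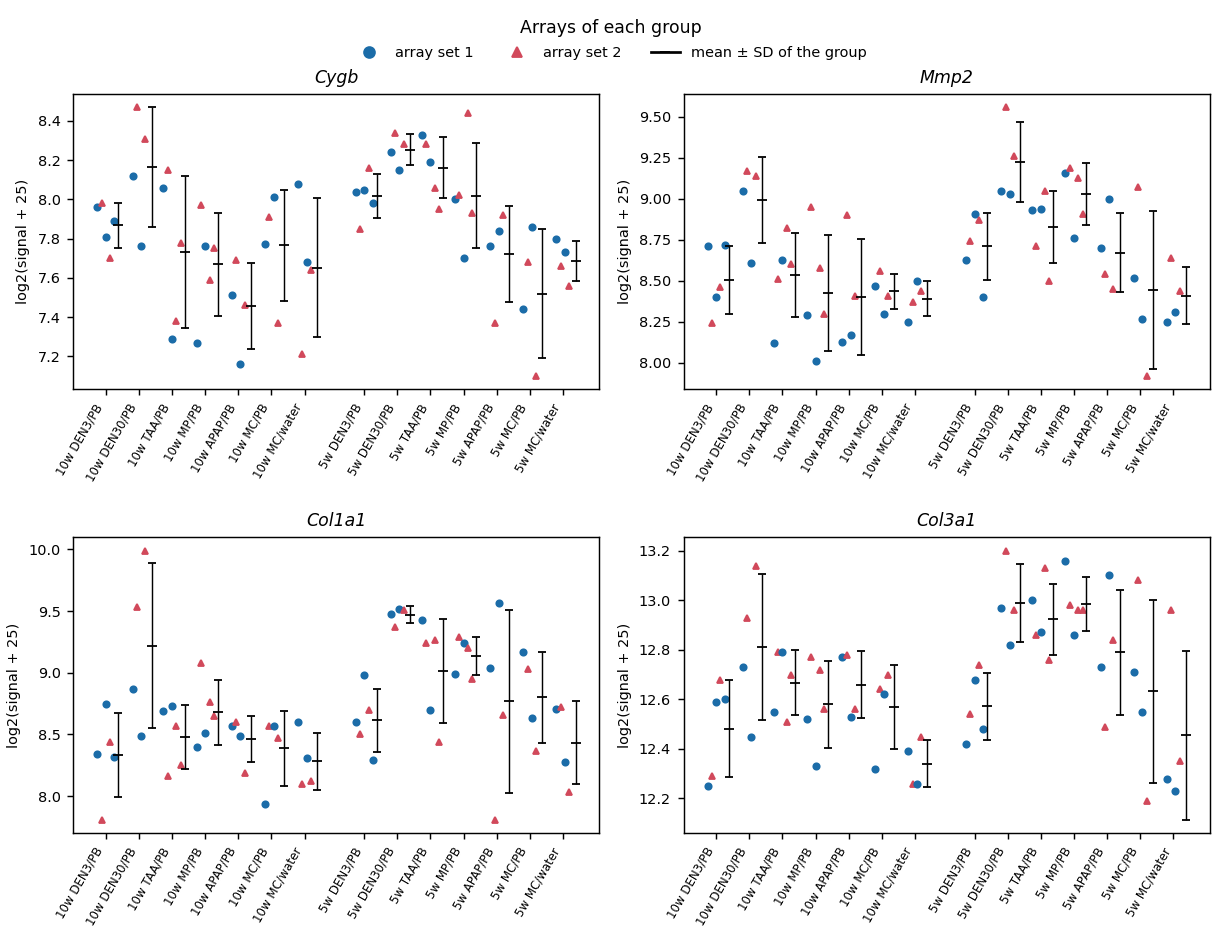
Cygb, Mmp2, Col1a1 and Col3a1 on each array, as log2(signal + 25), in the 14 groups with 10w on the left; circles and triangles mark array sets 1 and 2, and bars give the group mean ± SD. Cygb at 5w averaged 8.25 in DEN30/PB and 7.52 in MC/PB livers.

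Most other genes of the set were also on the higher side in DEN30/PB livers without passing the test. At 5w, 34 of 38 had a difference above 0 from MC/PB, against 53.2% of all genes, with a median of 0.35 against 0.01 over all genes. An unadjusted p below 0.05 was reached by 12 of 38 (31.6%) and by 5.8% of all genes. At 10w, 32 of 37 had a difference above 0 (54% of all genes), the median was 0.26 against 0.02, and none passed, against 0.0285% of all genes tested. An unadjusted p below 0.05 was reached at 10w by 14 of 37 (37.8%) and by 5.18% of all genes. The medians within array sets 1 and 2 were 0.24 and 0.41 at 5w and 0.16 and 0.44 at 10w. Without replicate 4 of 5w MC/PB the 5w median was 0.24, and 33 of 38 genes had a difference above 0 (52.5% of all genes). In that fit 8 of 38 had an unadjusted p below 0.05 (5.49% of all genes). Without replicate 3 of 10w DEN30/PB the 10w median was 0.42, and 32 of 37 genes had a difference above 0 (53.3% of all genes). In that fit 19 of 37 had an unadjusted p below 0.05 (5.78% of all genes). Both arrays were singled out by low values of these same genes, so counts without them are descriptions only. The groups did not overlap for 4 of 38 genes at 5w (Cygb, Col1a1, Lamb1 and Bgn), against 3.66% of all genes. At 10w they did not overlap for 2 of 37 (Mmp2 and Col6a3), against 3.23%. The 7 fibrillar and beaded collagens all had differences above 0 at both weeks, with medians of 0.41 at 5w and 0.31 at 10w. So did all 8 remodelling and processing genes on their brightest probe sets, with medians of 0.41 and 0.49. The 5w counts and medians of these 8 genes and of the whole set include Loxl1. That gene met the minimum for testing at 5w mainly through DEN30/PB livers, so its direction there is no separate observation. The other probe sets of Mmp14 and Timp2 lay below 0 at 5w, and that of Timp2 also at 10w. Without replicate 4 of 5w MC/PB Timp1 lay below 0 at 5w. All comparisons of initiated groups within a week share the same 4 MC/PB livers. The set was chosen with earlier results of these data known, and its collagens varied together. Its shares beside those of all genes are therefore descriptions only.

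Mmp2, the gelatinase that cleaves denatured and basement membrane collagen, came closest to passing after Cygb. Its 5w signals were 506, 732, 496 and 586 in DEN30/PB livers, against 341, 514, 284 and 217 in MC/PB livers. Replicate 2 of MC/PB reached into the DEN30/PB range, and the difference was 0.78 ± 0.18 (adjusted p = 0.0969). At 10w they were 504, 551, 365 and 541 in DEN30/PB livers, against 329, 351, 289.9 and 316 in MC/PB livers, without overlap and with a difference of 0.56 ± 0.18 (adjusted p = 0.683). The other probe set of Mmp2 gave 0.28 and 0.36. Loxl1, a lysyl oxidase-like enzyme that cross-links elastin and collagen, had 5w signals of 132, 165, 68.2 and 155 in DEN30/PB livers, against 16.9, 84.3, 22.6 and 17.2 in MC/PB livers. All MC/PB livers and replicate 3 of DEN30/PB (68.2) were below the minimum of 100, and the groups overlapped. Loxl1 met the minimum for testing at 5w mainly through DEN30/PB livers, so no fold is given. The difference did not pass (limma, adjusted p = 0.259). Mmp14, the membrane-bound activator of Mmp2, differed by 0.40 ± 0.20 at 5w and 0.20 ± 0.23 at 10w, or 0.10 at 10w without replicate 3 of DEN30/PB. The other probe set of Mmp14 gave -0.05 at 5w and 0.08 at 10w. The TIMP genes differed by 0.08 (Timp1), 0.37 (Timp2) and 0.22 (Timp3) at 5w and by 0.49, 0.52 and 0.50 in the same order at 10w. Without replicate 4 of 5w MC/PB the 5w differences were -0.13 (Timp1) and 0.33 (Timp3), and without replicate 3 of 10w DEN30/PB the 10w difference of Timp2 was 0.80. The other probe set of Timp2 gave -0.08 at 5w and -0.02 at 10w, while those of Timp3 lay above 0 at both weeks. Serpinh1, the collagen chaperone, differed by 0.41 and 0.26, and Plod2, a lysyl hydroxylase of collagen, by 0.49 and 0.25 at 5w and 10w. Both 5w differences shrank without replicate 4 of MC/PB, to 0.22 ± 0.19 for Serpinh1 and 0.26 ± 0.25 for Plod2.

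Basement membrane genes were divided. Col4a1 and Col4a2 code for the chains of type IV collagen, and Lamb1, Lamc1 and Nid1 for laminin chains and the nidogen that joins the networks. In DEN30/PB livers at 5w Col4a1 differed from MC/PB by 0.46 ± 0.14 (adjusted p = 0.461), Col4a2 by 0.49 ± 0.18 (0.566) and Lamb1 by 0.61 ± 0.21 (0.519). Lamb1 signals were 213, 326, 228 and 266 in DEN30/PB livers, against 192, 170, 128 and 149 in MC/PB livers, without overlap. Col18a1, the source of endostatin, lay on the other side, at -0.20 at 5w and -0.18 at 10w. At 10w Col4a1 differed by 0.44 ± 0.14 (adjusted p = 0.683) and Nid1 by 0.40 ± 0.15 (0.828), while Lamb1 differed by 0.14 ± 0.20, Lamc1 by 0.09 ± 0.11 and Col4a2 by -0.11 ± 0.21 (0.999 each). Without replicate 3 of DEN30/PB the 10w differences of Lamb1, Lamc1 and Col4a2 were 0.24, 0.03 and -0.01. The other probe set of Nid1 went the other way, with -0.33 at 5w and -0.33 at 10w. The other probe set of Col4a1 gave 0.39 and 0.36.

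Among stellate cell markers other than Cygb, DEN30/PB livers showed no difference that passed. Acta2, the smooth muscle actin of activated stellate cells, had 10w signals of 295, 179, 193 and 241 in DEN30/PB livers, against 196, 93.6, 142 and 179.8 in MC/PB livers. The groups overlapped, with a difference of 0.52 ± 0.20 at 10w (adjusted p = 0.864) and 0.25 ± 0.18 at 5w. Des, the muscle filament protein desmin, differed by 0.54 ± 0.26 at 5w and 0.02 ± 0.19 at 10w. Lrat, which makes the stored retinyl esters, differed by 0.20 ± 0.16 and 0.10 ± 0.16, and Reln, a marker of resting and activated stellate cells, by -0.14 ± 0.20 and -0.21 ± 0.22. Without the low arrays the 5w difference of Lrat was 0.13 and the 10w differences of Reln and Des were both -0.02. Fn1, fibronectin, which hepatocytes also make in quantity, differed by 0.03 ± 0.09 at 5w and -0.23 ± 0.11 at 10w. Summed cholangiocyte markers (6 of 7 with a probe set) had medians of 1632 in DEN30/PB and 1431 in MC/PB livers at 5w, and of 2037 and 1758 at 10w, with overlap at both weeks. Their part in the matrix differences was not tested.

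**Figure D3:**
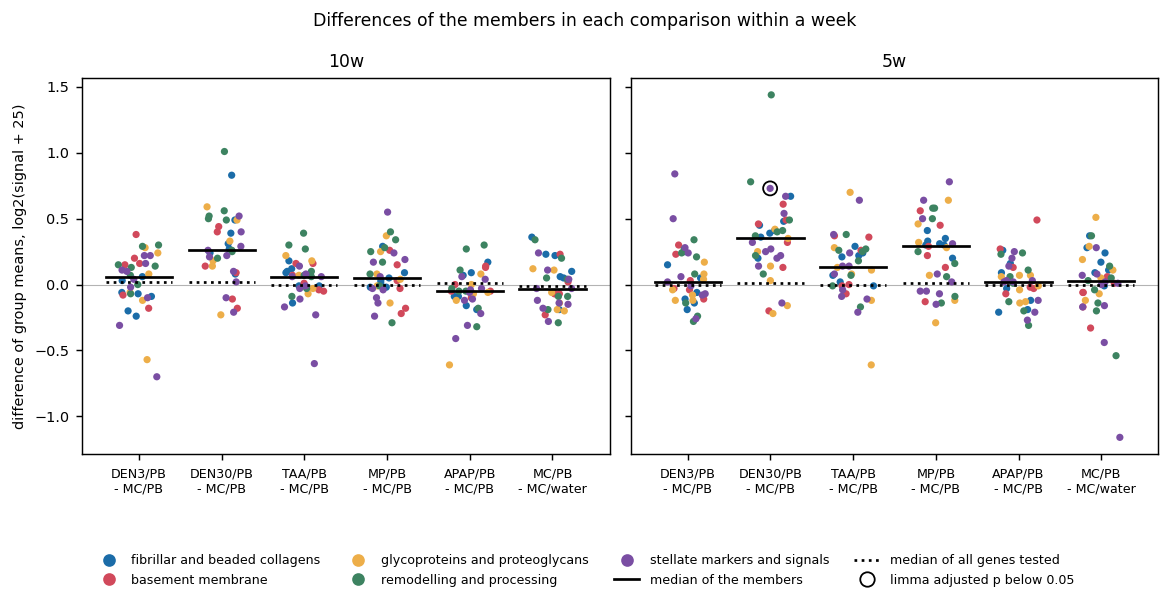
Differences of the tested genes of the set in each comparison within a week, as log2(signal + 25), 10w on the left. Points are genes coloured by role, solid and dotted lines are the medians of the set and of all genes tested, and the ring marks Cygb, the gene that passed. The set's median is 0.35 at 5w and 0.26 at 10w in DEN30/PB livers.

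In MP/PB livers at 5w none of 38 genes passed, while 0.0572% of all genes did, and 11 of 38 (28.9%) reached an unadjusted p below 0.05, against 8.11% of all genes. The median difference from MC/PB was 0.29 against 0.01 over all genes, with 29 of 38 above 0 (52.3% of all genes). Without replicate 4 of MC/PB the median was 0.17, with 26 of 38 above 0 (52.3% of all genes). In that fit 4 of 38 had an unadjusted p below 0.05 (7.17% of all genes). Without replicate 2 of MC/PB 1 gene was called. Mmp2 signals were 548, 559, 409, 535 and 455 in MP/PB livers, against 341, 514, 284 and 217 in MC/PB livers. The groups overlapped, with a difference of 0.58 ± 0.17 (adjusted p = 0.268). Col4a2 differed by 0.56 ± 0.17 (adjusted p = 0.334) and Cygb by 0.50 ± 0.14 (0.262). Groups did not overlap for 3 of 38 genes (Des, Bgn and Pdgfra), against 2.59% of all genes. Hbb and Alas2, blood cell transcripts, summed to a median of 25800 (23300 to 34120) in MP/PB and 20090 (6247 to 28010) in MC/PB livers. Medians were also higher in MP/PB for cholangiocyte (2020 against 1431), hepatocyte (307100 against 291800) and portal fibroblast and mesothelium markers (1238 against 1106). They were lower for macrophage (8386 against 9669), lymphocyte (754.6 against 956.9) and endothelial markers (11370 against 11690). The part of these cells was not tested. The 7 stellate markers named above summed to 4198 (3624 to 4427) and 3682 (3319 to 5119). At 10w in MP/PB livers none of 37 passed (0.0854% of all genes), 1 had an unadjusted p below 0.05 (7.7% of all genes), and the median was 0.05.

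In TAA/PB livers at 5w none of 38 passed (0.0191% of all genes) and 5 had an unadjusted p below 0.05 (5.63% of all genes). Cygb signals were 297, 286, 267, 242 and 222 in TAA/PB livers, against 149, 180, 207 and 112 in MC/PB livers. The groups did not overlap, as for 1.72% of all genes, and the difference was 0.64 ± 0.14 (adjusted p = 0.155). Dcn, the small proteoglycan decorin that binds collagen fibrils, differed by 0.70 ± 0.32 (adjusted p = 0.862), and by 0.30 ± 0.29 without replicate 4 of MC/PB. The median over the set was 0.13. Without replicate 4 of MC/PB it was 0.07, and 1 of 38 genes had an unadjusted p below 0.05 (5.17% of all genes). At 10w none of 37 passed (0.00949% of all genes), none reached an unadjusted p below 0.05 (4.58% of all genes), and the median was 0.06.

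In DEN3/PB livers none passed at 5w (0.0381% of all genes) or at 10w (0.019%), with 2 of 38 (5.19% of all genes) and 1 of 37 (4.53% of all genes) below an unadjusted p of 0.05. Cygb signals at 5w were 239, 205, 240, 261 and 228 in DEN3/PB livers, against 149, 180, 207 and 112 in MC/PB livers. They overlapped by a single pair of livers, with a difference of 0.50 ± 0.14 (adjusted p = 0.382). Nid1 at 10w differed by 0.38 ± 0.14 (adjusted p = 1). In APAP/PB livers none passed at 5w (0% of all genes) or at 10w (0.0664%), with 1 of 38 (7.2% of all genes) and 0 of 37 (6.07% of all genes) below an unadjusted p of 0.05. Col4a2 came closest at 5w, with a difference of 0.49 ± 0.18 (adjusted p = 0.517). The medians over the set were 0.02 at 5w and -0.05 at 10w in APAP/PB, and 0.02 and 0.06 in DEN3/PB livers. Without replicate 4 of MC/PB the 5w medians were -0.07 in APAP/PB and -0.06 in DEN3/PB livers.

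Phenobarbital alone was read from MC/PB against MC/water. None of 38 genes passed at 5w, where 1.25% of all genes did, and none of 37 at 10w, where 2.26% did. An unadjusted p below 0.05 was reached by 2 of 38 at 5w (10.8% of all genes) and by 0 of 37 at 10w (14%). Mmp14 signals at 5w were 1359, 1929, 2354 and 2552 in MC/PB livers, against 3272, 2286, 3263 and 2974 in MC/water livers. The groups overlapped, and the difference was -0.54 ± 0.20 (adjusted p = 0.233). Tgfb1, the main fibrogenic cytokine, differed by -1.16 ± 0.50 at 5w (adjusted p = 0.359) at signals of 14.2 to 111 in MC/PB and 74.7 to 159 in MC/water livers, around the minimum of 100. Col1a1 differed by 0.37 at 5w, with a 95% confidence interval of -0.13 to 0.86.

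Outside the set, the cross-linking enzyme gene Lox fell in MC/PB livers at both weeks and rose in DEN30/PB livers at 5w. It belongs to a list of 17 other collagen processing enzymes, 10 of them tested. Lox averaged 7.0 in 5w MC/PB and 11.42 in 5w MC/water livers on the log2 scale, a difference of -4.42 ± 0.31 (adjusted p = 7.3e-11), and at 10w it differed by -3.29 ± 0.30 (adjusted p = 1.18e-08). It was the only tested gene of its list called in either of those comparisons. In DEN30/PB livers at 5w Lox was higher than in MC/PB by 2.07 ± 0.31 (adjusted p = 0.00155), the only call of its list there, and at 10w the difference was 1.26 ± 0.30 (adjusted p = 0.331). The other probe set of Lox averaged 6.27 in 5w MC/PB and 9.4 in 5w MC/water livers, and 7.55 in 5w DEN30/PB livers. No tested gene of the TGF-beta pathway list (19 of 23 tested), of the other matrix proteins (22 of 30), of the other matrix proteases (10 of 18) or of the other stellate and smooth muscle genes (13 of 21) passed in those 3 comparisons, nor in DEN30/PB at 10w. Between the weeks Lox differed by -1.03 ± 0.28 in DEN3/PB livers (adjusted p = 0.028).

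Between 5w and 10w the small leucine-rich proteoglycan Dcn fell. Surgery, regrowth and age separate the sampling times in all treatments, and longer phenobarbital does so in all but MC/water, so that in the groups on phenobarbital these cannot be told apart. Dcn signals in TAA/PB livers were 247, 309, 285, 266.5 and 570 at 10w, against 885, 929, 645, 684 and 912 at 5w. The weeks did not overlap, and the difference was -1.26 ± 0.29 (adjusted p = 0.0104); all 5 animals were lower, with changes of -1.74 to -0.65. It was the only one of 38 tested genes called, where 1.76% of all 10900 genes passed. The call held in each of 10 fits that left out an array, and with the animal as a block the adjusted p was 0.000177. Within array sets 1 and 2 the difference was -1.43 and -1.15, not called in fits of so few arrays (adjusted p = 0.201 and 0.182).

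In the vehicle animals Dcn differed between the weeks by -0.53 ± 0.32 in MC/PB (adjusted p = 0.583) and by -0.23 ± 0.32 in MC/water livers (adjusted p = 0.993), and the difference of these changes was -0.30 ± 0.46 (adjusted p = 1). Without replicate 4 of 5w MC/PB, picked for its low values, the change in MC/PB was -0.93 and the difference of the changes -0.70.

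In MP/PB livers Dcn signals were 225, 373, 229, 559 and 457 at 10w, against 672, 664, 549, 1102 and 969.9 at 5w. One 10w liver reached into the 5w range, and the difference was -1.09 ± 0.29 (adjusted p = 0.0407). Mmp2 in the same livers had 288.5, 468, 234, 359 and 290.3 at 10w, against 548, 559, 409, 535 and 455 at 5w. The weeks overlapped, and the difference was -0.60 ± 0.16 (adjusted p = 0.0439). These were the 2 of 38 tested genes called, where 1.34% of all genes passed. All 5 MP/PB animals were lower at 10w for both genes. With the animal as a block the adjusted p was 0.00185 for Dcn and 0.00437 for Mmp2. The calls were lost in 7 of 10 (Dcn) and 8 of 10 (Mmp2) fits that left out an array, with differences from -1.25 to -0.94 and from -0.73 to -0.50. The other probe set of Mmp2 differed by -0.16. Over the set, 14 of 38 genes reached an unadjusted p below 0.05 in MP/PB livers (12% of all genes), 12 had a difference above 0 (48.3% of all genes), and the median was -0.24 against -0.01 over all genes. In TAA/PB livers 5 of 38 reached an unadjusted p below 0.05 (12.5% of all genes), 9 had a difference above 0 (48.7% of all genes), and the median was -0.12.

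**Figure D4:**
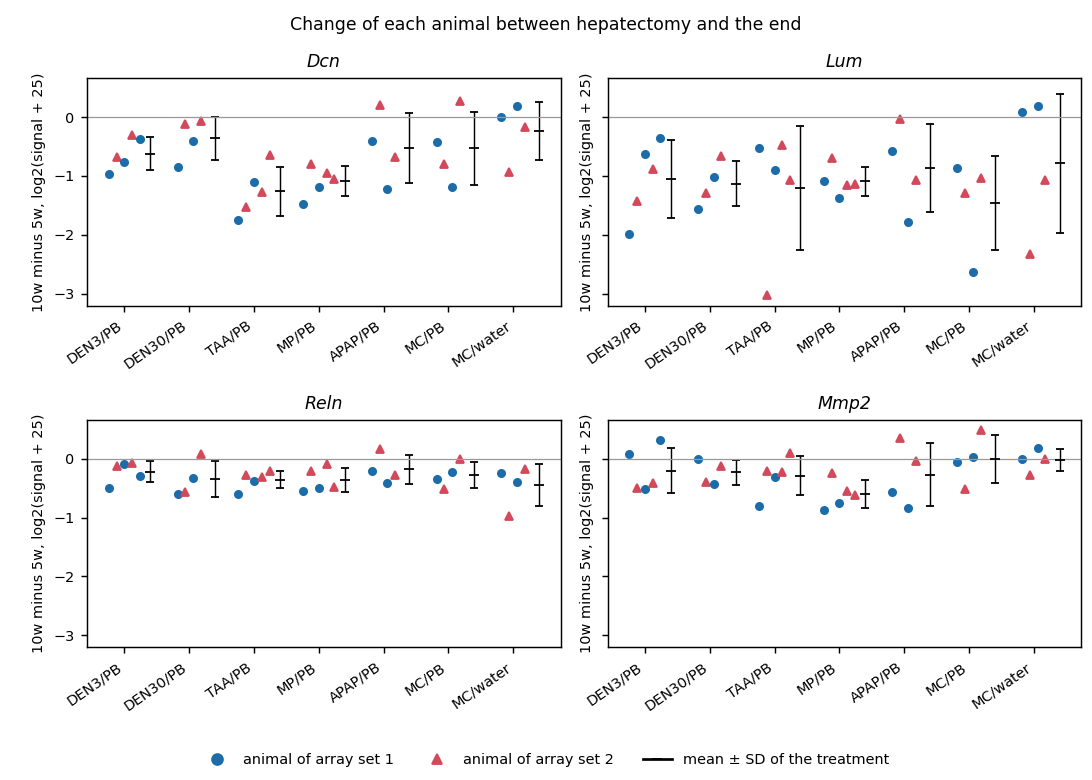
Change of each animal between its samples, as 10w minus 5w on the log2(signal + 25) scale, for Dcn, Lum, Reln and Mmp2. Points are animals by treatment, circles and triangles mark array sets 1 and 2, and bars give the mean ± SD. Nearly all points of Dcn, Lum and Reln lie below 0, that is in 28, 29 and 29 of 31 animals. Lum was below the minimum signal for testing on most arrays.

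No gene of the set passed between the weeks in the other treatments, where 0.0459% (MC/water), 1.31% (MC/PB), 2.9% (DEN3/PB), 0% (DEN30/PB) and 1.47% (APAP/PB) of all genes passed. An unadjusted p below 0.05 was reached by 1, 3, 4, 3 and 1 of 38 genes in those treatments, against 6.51%, 11.5%, 15%, 8.02% and 12.3% of all genes. With the animal as a block, 1 gene was called in MC/PB (Lum, adjusted p = 0.0254; 4.84% of all genes), 1 in DEN3/PB (Col6a2, -0.72 ± 0.19, adjusted p = 0.00893; 8.83%), 3 in TAA/PB (6.01%) and 4 in MP/PB (4.9%). The additional calls in TAA/PB were Lum (adjusted p = 0.0367) and Cygb (-0.43 ± 0.13, adjusted p = 0.0406). In MP/PB they were Col3a1 (-0.40 ± 0.11, adjusted p = 0.0201) and Pdgfrb, a receptor for platelet-derived growth factor (-0.46 ± 0.14, adjusted p = 0.036). In MC/water, DEN30/PB and APAP/PB livers none was called with the block, where 1.41%, 1.46% and 6.34% of all genes were. Lum lay below the minimum of 100 on all 10w MC/PB and TAA/PB arrays and on most 5w TAA/PB arrays. Lum met the minimum for testing over both weeks mainly through 5w livers. Its calls in MC/PB and TAA/PB therefore rest on values under the minimum, and the size of a fall cannot be read from them.

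Counted over all treatments, 29 of 31 animals had lower Lum and Reln at 10w, and 28 had lower Dcn. Of all genes tested, 2.97% were lower in at least 28 of 31 animals and 3.24% were higher in at least 28. Reln signals in TAA/PB livers were 1461, 1752, 1485, 1701 and 1598 at 10w, against 2221, 2119, 1936, 2112 and 1849 at 5w, without overlap and with a difference of -0.35 ± 0.19 (adjusted p = 0.463). In that comparison the weeks did not overlap for 2 of 38 genes of the set (Dcn and Reln), against 2.99% of all genes. Lum, which codes for lumican, had signals of 3.78 to 51.5 at 10w and 36.0 to 154 at 5w in MC/PB livers; most of its values were below 100 and no fold is given. Acta2 and Timp1 were lower at 10w in 9 of 31 animals, a count for which no share over all genes was taken. None of the 38 genes passed in any of the 6 tests of whether a treatment's difference changed between the weeks, in which 0% of all genes passed; 4 of 38 had an unadjusted p below 0.05 for MP/PB (3.56% of all genes) 0 for MC/PB against MC/water (4.49%) and 1 each for DEN3/PB (2.25%), DEN30/PB (1.98%), TAA/PB (2.39%) and APAP/PB (3.28%).

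Other cells' markers moved between the weeks as well. Hbb and Alas2, the 2 of 3 listed blood transcripts with a probe set, summed to a median of 11400 (7621 to 14000) at 10w and 22610 (14960 to 31780) at 5w in TAA/PB livers. In MP/PB livers the sums were 11130 (9421 to 21990) at 10w and 25800 (23300 to 34120) at 5w. Both transcripts were called lower in both treatments. Kdr, an endothelial receptor, differed at 10w by -0.45 ± 0.08 in TAA/PB livers (adjusted p = 0.00105) and by -0.34 ± 0.08 in MP/PB livers (adjusted p = 0.0245). In the other direction, Msln, a mesothelial marker, was called higher at 10w in TAA/PB livers (1.24 ± 0.33, adjusted p = 0.0356), 1 of 5 tested markers of portal fibroblasts and mesothelium. Summed over the 6 with a probe set, those markers had medians of 1233 (1206 to 1287) at 10w and 895.9 (806.2 to 1646) at 5w in TAA/PB livers, and of 1396 (1189 to 1624) and 1238 (933.7 to 1279) in MP/PB livers. None of 6 macrophage markers was called, and their sums had medians of 10980 at 10w and 9224 at 5w in TAA/PB livers, and of 11440 and 8386 in MP/PB livers. The part of these in the changes of Dcn and Mmp2 was not tested.

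Other matrix genes outside the set also passed between the weeks. Ccn2, a matricellular target of TGF-beta signalling, rose at 10w in MC/PB (1.64 ± 0.31, adjusted p = 0.00254), DEN3/PB (1.57 ± 0.27, 0.000318), TAA/PB (1.46 ± 0.27, 0.000886) and MP/PB livers (1.38 ± 0.27, 0.003). P4ha1, a prolyl hydroxylase of collagen, rose in MC/PB, DEN3/PB and TAA/PB livers by 0.81, 0.64 and 0.86. Mgp, the matrix Gla protein, fell by 0.74 in TAA/PB livers and fell by 0.97 in MP/PB livers, and Col6a1 fell by 0.57 in MP/PB livers. Igfbp3, a binding protein for insulin-like growth factors made by non-parenchymal liver cells, fell by 0.60 in DEN3/PB livers, fell by 0.59 in TAA/PB livers and fell by 0.88 in MP/PB livers. Mmp15, a membrane-type metalloproteinase, rose in DEN3/PB, TAA/PB, MP/PB and APAP/PB livers by 0.54 to 0.75.

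Sparc, which codes for the collagen-binding protein osteonectin, separated the array sets without overlap. Its main probe set ranged from 2161 to 4124 over the 32 arrays of set 2 and from 776 to 1446 over the 30 arrays of set 1, a mean difference of 1.5 on the log2 scale. The other probe set of Sparc ranged from 504 to 1815 and from 767 to 2338 and differed by 0.01. Since every group holds 2 or 3 arrays of each set, the SD of Sparc within groups, up to 1.1, holds this difference.

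**Figure D5:**
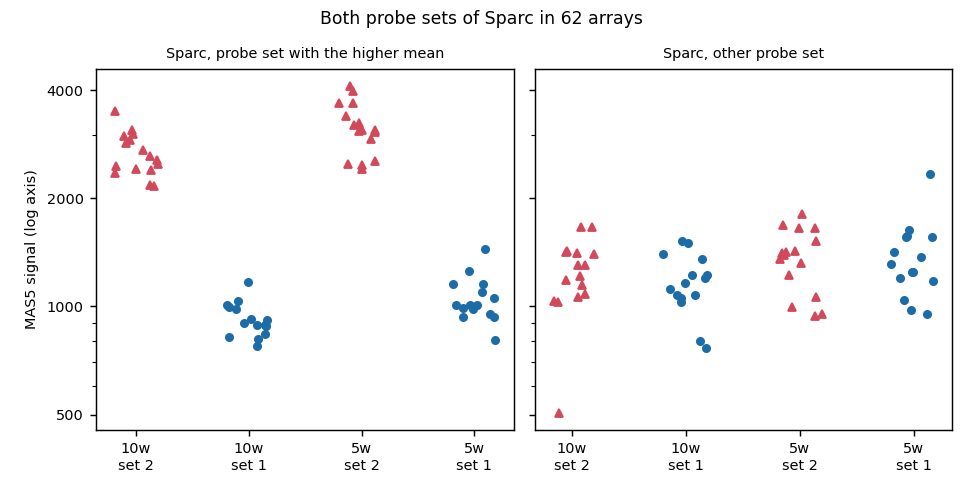
MAS5 signals of both probe sets of Sparc on all 62 arrays (log axis), by week and array set, 10w on the left. In the left panel every array of set 2 (from 2161) lies above every array of set 1 (up to 1446), and in the right panel the sets overlap.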

How the data were processed

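Liver RNA of 62 samples in 14 groups was hybridised to Affymetrix arrays, 1 array a sample. Per the submitters' processing notes the probe sets were summarised with MAS5 version 5.0; the deposited values are intensities on a linear scale, and the trimmed mean over the middle of each array (2% cut at either end) lay between 499.99 and 500, so each array had been scaled by the authors to a common level. No further normalization was applied. Of 31099 probe sets, 20826 carried 1 gene symbol in the platform annotation, 436 several, 9780 none and 57 were controls. All 62 value columns were mapped through the sample labels.

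Each of 14217 genes was represented by its brightest probe set on average, log2(signal + 25) was taken, and genes reaching a signal of 100 on at least 4 arrays of a fit were tested with limma 3.58.1 (lmFit and eBayes with a trend, R 4.3.3). Fits within a week used the 31 arrays of that week, and comparisons of weeks used all 62. P-values were adjusted by Benjamini-Hochberg over all genes tested at a threshold of 0.05. Errors are SE for differences and SD for group values, and the number of arrays, 4 or 5 a group, limits the precision. The test was checked on simulated data with independent errors. These held neither animal pairs nor array sets, so the check says nothing about the effect of either. Replicates are separate animals.

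The numbers pair the weeks, since the labels state that both samples came from the same animal, and all 31 animals correlated best with their own other sample (r from 0.206 to 0.396). Within a week they name different animals; every same-numbered pair exceeded a correlation of 0.1 in 3 comparisons (5w DEN3/PB, 5w DEN30/PB and 10w APAP/PB), and there the blocked value is printed where it changed a call. Array sets were read from the sign of the first component of the deviations from group means.

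Alternatives were no offset, no filter on low signals, quantile normalization, the mean of a gene's probe sets, only the groups compared, blocks for replicate number, array set and animal, fits within each array set, and leaving out each array. Promoter sequences came from RefSeq. The set's genes, the lists of other genes and the named genes were chosen with earlier results of these data known. Members could all be named, with full values for those that passed or had the smallest p; from the other lists up to 4 that passed were named. The lists were TGF-beta pathway, other matrix proteins, collagen processing enzymes and proteases, other stellate and smooth muscle genes, and markers of hepatocytes, portal fibroblasts and mesothelium, endothelium, macrophages, lymphocytes, cholangiocytes and blood.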

Additional observations from a re-analysis of the deposited data

Results flagged for a closer look

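Single arrays far from the rest of their group were looked for in 525 combinations of gene and group, by Dixon's test at its 95% level, which chance alone meets in about 1 of 20 groups. It marked 31, on 22 arrays, with at most 2 on an array. Values are log2(signal + 25), each followed by the range of the group's other arrays.

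Among collagens, replicate 1 of 10w MC/PB had 7.94 for Col1a1 (others 8.47 to 8.57), replicate 2 of 5w MC/PB had 10.33 for Col1a2 (9.29 to 9.34) and replicate 2 of 5w MC/water had 12.96 for Col3a1 (12.23 to 12.35). Replicate 2 of 10w APAP/PB had 9.19 for Col5a2 (8.6 to 8.69), and replicate 5 of 10w DEN3/PB had 7.90 for Col6a2 (7.09 to 7.23) and 8.21 for Col4a2 (8.44 to 8.49). Col4a1 was 9.58 on replicate 3 of 5w DEN30/PB (10.00 to 10.08), 9.44 on replicate 3 of 5w MP/PB (9.79 to 9.87) and 10.03 on replicate 3 of 10w DEN3/PB (9.53 to 9.65).

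Among other matrix genes, Lamb1 was 8.43 on replicate 1 of 5w TAA/PB (7.67 to 7.85), 7.44 on replicate 3 of 10w DEN3/PB (7.99 to 8.14) and 7.32 on replicate 3 of 10w APAP/PB (7.70 to 7.76). Nid1 was 10.58 on replicate 1 of 5w TAA/PB (9.67 to 9.88), and Dcn was 9.22 on replicate 5 of 10w TAA/PB (8.09 to 8.38). Bgn was 10.64 on replicate 3 of 10w MC/water (10.33 to 10.38) and 9.87 on replicate 4 of 10w MC/PB (10.33 to 10.37), and Eln was 5.91 on replicate 4 of 5w MC/water (6.87 to 7.06).

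Among remodelling genes, Mmp14 was 10.08 on replicate 1 of 10w MC/PB (11.09 to 11.29), Timp3 was 8.69 on replicate 3 of 5w DEN30/PB (9.25 to 9.32) and Serpinh1 was 8.11 on replicate 4 of 5w MC/PB (8.85 to 8.91). Loxl1, below a signal of 100 on most arrays, was 6.77 on replicate 2 of 5w MC/PB (5.39 to 5.57) and 5.18 on replicate 2 of 5w MP/PB (6.38 to 6.80).

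Among stellate markers, Acta2 was 6.87 on replicate 2 of 10w MP/PB (7.62 to 7.89), and Tagln was 6.99 on replicate 2 of 5w APAP/PB (7.78 to 7.84) and 6.70 on replicate 3 of 10w DEN30/PB (8.43 to 8.52). Des was 6.73 on replicate 4 of 5w MC/water (7.2 to 7.28) and 6.78 on replicate 4 of 10w DEN30/PB (7.13 to 7.17). Vim was 10.59 on replicate 4 of 10w MC/water (10.15 to 10.16) and 9.85 on replicate 5 of 10w TAA/PB (10.07 to 10.14). Tgfb1, near the minimum signal, was 5.06 on replicate 3 of 10w MP/PB (6.93 to 7.47) and 7.59 on replicate 3 of 10w APAP/PB (5.60 to 5.77).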

How the results depend on the processing

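The number of called genes of the set was recomputed under each alternative for 25 comparisons, and in 19 of them it moved under none. No direction of the called differences reversed. The single call of 5w DEN30/PB against MC/PB (Cygb) became 0 without a filter, with quantile normalization, with only the groups compared, with the replicate block and within either array set; leaving out 1 array gave 0 to 2 calls, and over the 9 other alternatives its adjusted p ran from 0.0384 to 0.986. In 5w MP/PB the count with 1 array left out was 0 to 1, the 1 coming without replicate 2 of MC/PB.

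Between the weeks, MC/PB had 1 call with the animal as a block, that of Lum, which lay below 100 on all 10w MC/PB arrays. DEN3/PB had 1 call with quantile normalization, with only the groups compared, with the replicate block, with the array set as a block and with the animal block, and 0 to 1 with 1 array left out, the 1 coming without replicate 5 of 10w DEN3/PB. TAA/PB had 0 calls within either array set and 3 with the animal block, among them Lum, again below 100 on all 10w arrays of the group. MP/PB had 0 without a filter, with the mean of all probe sets, with only the groups compared and within either array set, 4 with the animal block and 0 to 2 with 1 array left out. The replicate block changed no other count. The causes were not tested; within an array set only 2 or 3 arrays a group remained. Quantile normalization moved the median gene of an array by -0.064 to 0.058.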

Other observations

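Several livers stood high or low for most genes of the set at once. In 5w TAA/PB, replicate 1 had 34 of 38 genes above the group mean (mean deviation 0.22) and replicate 5 had 8 (mean deviation -0.26). In 5w APAP/PB, replicate 3 had 31 above (0.23) and replicate 2 had 9 (-0.23). In 10w DEN30/PB, replicate 4 had 32 above (0.25) and replicate 3 had 7 (-0.35). The median deviation of all genes on these 6 arrays lay between -0.01 and 0.03.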
